A study of Homo sapiens with 30 samples.

Results

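The TAL1 complex and its leukaemia partners were followed through T cell activation by way of 10 genes: TAL1, LYL1, TCF3, TCF12, LMO1, LMO2, LDB1, RUNX1, RUNX3 and MYB. The genes were taken by symbol, and all 10 have a row among the 54300 symbols of the count files. A filter on low counts kept 9 of them among 21554 tested symbols and left out LYL1. LMO2 passed that filter through its libraries of 12 h and later alone, so it had to differ between times to be tested.

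RNA was sequenced from Jurkat E6-1, a human T cell acute lymphoblastic leukaemia line, either edited (KO) or unedited (WT). The edited cells are described as a knockout of isoform 1 of SLAMF6, a receptor of lymphocytes, and the treatment protocol calls them SLAMF6∆17-65 cells. The 5 KO groups and the 5 WT groups were sampled unstimulated (0 h) and after 6, 12, 24 and 36 h with 200 ng/ml PMA, a phorbol ester that activates protein kinase C, and 300 ng/ml ionomycin, a calcium ionophore. Each group holds 3 libraries. The time labels carry no unit, and hours were taken from the treatment protocol. The series title speaks of overexpression of isoform 3 instead, and the design text was followed. Counts summed over isoforms cannot check the edit, and SLAMF6 averaged 19.25 ± 1.47 CPM in KO at 0 h and 21.1 ± 3.399 CPM in WT at 0 h (SD, n = 3 each). Later it was higher in KO without overlap, with 123 ± 20.7 CPM against 78.7 ± 16.6 CPM in WT at 24 h. At 36 h it averaged 138.9 ± 12.8 CPM in KO and 104.9 ± 5.89 CPM in WT. All cells are of 1 line, and the number of edited clones is not stated, so other differences between KO and WT cells cannot be told apart from the edit. No label says that libraries of a group are separate cultures, so p-values measure the spread between these libraries only. The library titles carry a letter whose meaning is not stated. It is B in KO and A in WT at 0 to 24 h, where letter and genotype cannot be told apart, and C in both at 36 h. Comparisons of 36 h with an earlier time therefore also compare letter C with A or B. There time and letter cannot be told apart.

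TAL1 is a basic helix-loop-helix factor of blood stem cells, erythroid cells and megakaryocytes that is silenced during normal T cell development and switched on in many T cell leukaemias. It binds DNA as a dimer with an E protein such as TCF3 (E2A) or TCF12 (HEB), and LMO1 or LMO2, small LIM-only adaptors, link this dimer to the scaffold LDB1. With GATA3, RUNX1 and MYB the complex occupies shared enhancers in T cell leukaemia cells, Jurkat among them, in a loop through which its members sustain their own expression.

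Library totals ran from 5635023 to 28234046 counts. The 3 shallow libraries, replicate 2 of KO 0 h, WT 0 h and WT 36 h, held 5635023, 7593319 and 8535563 counts. All 7 T cell markers were expressed, and their summed level was 2201 to 3465 CPM in KO libraries and 2575 to 3896 CPM in WT libraries, lower in KO at each of the 5 times without overlap. Of 8 erythroid and megakaryocyte markers 7 were under 1 CPM in every library, and HBA1 was at 0 in all. The 3 blood progenitor markers summed to at most 0.528 CPM in KO and 4.73 CPM in WT. The 5 B cell markers summed to 13.8 to 40.9 CPM, of which CD79A gave 8.65 to 32.2 CPM. The part of these markers in the results was not tested. KO 6 h replicate 2 and KO 24 h replicate 3 stood apart from their groups in several of the 10 genes. WT 24 h replicate 3 did so in TCF3 and TCF12. Several results that rest on these libraries are given with and without them. Levels are CPM with library sizes scaled by TMM, and genes are compared with each other only per kilobase of merged exons. In bulk RNA fewer expressing cells and less RNA per cell cannot be told apart.

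Promoter windows of 300 bases (250 before the start to 50 after it) were taken from RefSeq on GRCh38.p14, 15 windows for 9 of the 10 genes; LMO2 had no entry. The windows of TAL1 and RUNX3 are shown because these 2 genes moved in opposite directions at 6 h, and because the words preferred by GATA and RUNX factors, partners of TAL1, differ between their starts. Capitals mark GATAA and TGTGGT on either strand. The TAL1 windows are chr1:47231666-47231965 and chr1:47232286-47232585 and the RUNX3 windows chr1:24964961-24965260 and chr1:24930227-24930526, all on the minus strand, written 5′ to 3′.
TAL1 first window: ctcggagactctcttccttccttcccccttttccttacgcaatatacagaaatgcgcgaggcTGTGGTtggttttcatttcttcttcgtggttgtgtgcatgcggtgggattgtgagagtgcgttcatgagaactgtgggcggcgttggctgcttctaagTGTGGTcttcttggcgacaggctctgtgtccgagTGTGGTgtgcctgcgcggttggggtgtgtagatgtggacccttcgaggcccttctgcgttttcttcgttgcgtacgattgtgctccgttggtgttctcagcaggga
TAL1 second window: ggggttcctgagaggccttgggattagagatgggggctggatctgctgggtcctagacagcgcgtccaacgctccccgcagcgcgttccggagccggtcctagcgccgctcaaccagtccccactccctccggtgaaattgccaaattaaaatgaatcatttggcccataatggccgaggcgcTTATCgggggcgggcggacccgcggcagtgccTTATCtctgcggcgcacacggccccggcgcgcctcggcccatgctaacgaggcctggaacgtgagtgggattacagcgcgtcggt
RUNX3 first window: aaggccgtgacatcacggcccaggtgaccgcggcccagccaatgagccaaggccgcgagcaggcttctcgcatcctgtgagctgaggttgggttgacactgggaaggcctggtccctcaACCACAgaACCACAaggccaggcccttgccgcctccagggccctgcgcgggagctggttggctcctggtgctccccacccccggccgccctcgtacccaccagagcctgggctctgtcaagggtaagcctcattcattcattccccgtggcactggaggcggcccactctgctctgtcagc
RUNX3 second window: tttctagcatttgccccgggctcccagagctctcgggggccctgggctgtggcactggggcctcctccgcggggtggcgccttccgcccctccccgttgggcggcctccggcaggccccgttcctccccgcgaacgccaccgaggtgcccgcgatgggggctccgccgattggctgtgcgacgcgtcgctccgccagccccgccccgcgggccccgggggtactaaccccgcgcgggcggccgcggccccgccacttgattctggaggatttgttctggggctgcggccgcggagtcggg
The first TAL1 window holds 3 TGTGGT matches and the second 2 GATAA matches. The first RUNX3 window holds 2 TGTGGT matches, and the second holds neither word. Of all 35116 RefSeq windows of this length 13.1% hold TGTGGT and 22.7% hold GATAA. A match describes letters and shows no binding.

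After activation most of the tested genes were lower in KO. In WT as many were called higher as lower at 12 and 24 h, LMO2 included. In KO 7, 6, 6 and 7 of the 9 tested genes were called at 6, 12, 24 and 36 h against 0 h (edgeR quasi-likelihood F test, Benjamini-Hochberg adjusted p under 0.05), against 27.2%, 27.8%, 32.8% and 36.7% of all tested genes. The called genes were mostly lower, with 1 gene higher at each time (RUNX3 at 6 and 12 h, LMO2 at 24 and 36 h) and 6, 5, 5 and 6 lower. LMO2 had to differ between times to be tested. Its higher calls (24 and 36 h in KO, 12, 24 and 36 h in WT) therefore cannot count as a result. Apart from LMO2 no gene was called higher in KO at 24 and 36 h. Over all tested genes 14%, 14.1%, 16.1% and 18.6% were higher and 13.2%, 13.7%, 16.7% and 18% lower in KO. In WT 6, 6, 6 and 5 of the 9 were called, against 22.4%, 30.3%, 34.3% and 39.1% of all tested genes. There 2, 3, 3 and 2 were higher and 4, 3, 3 and 3 lower, and over all tested genes 11.8%, 14.8%, 17.3% and 20.2% were higher and 10.5%, 15.6%, 17% and 19% lower. The median log2 change of the 9 genes was -0.68, -0.63, -0.75 and -0.65 in KO and -0.75, 0.18, -0.19 and -0.21 in WT, while that of all tested genes was 0.03, 0.05, 0.05 and 0.04 in KO and 0.03, 0.12, 0.03 and 0.01 in WT.

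**Figure D1:**
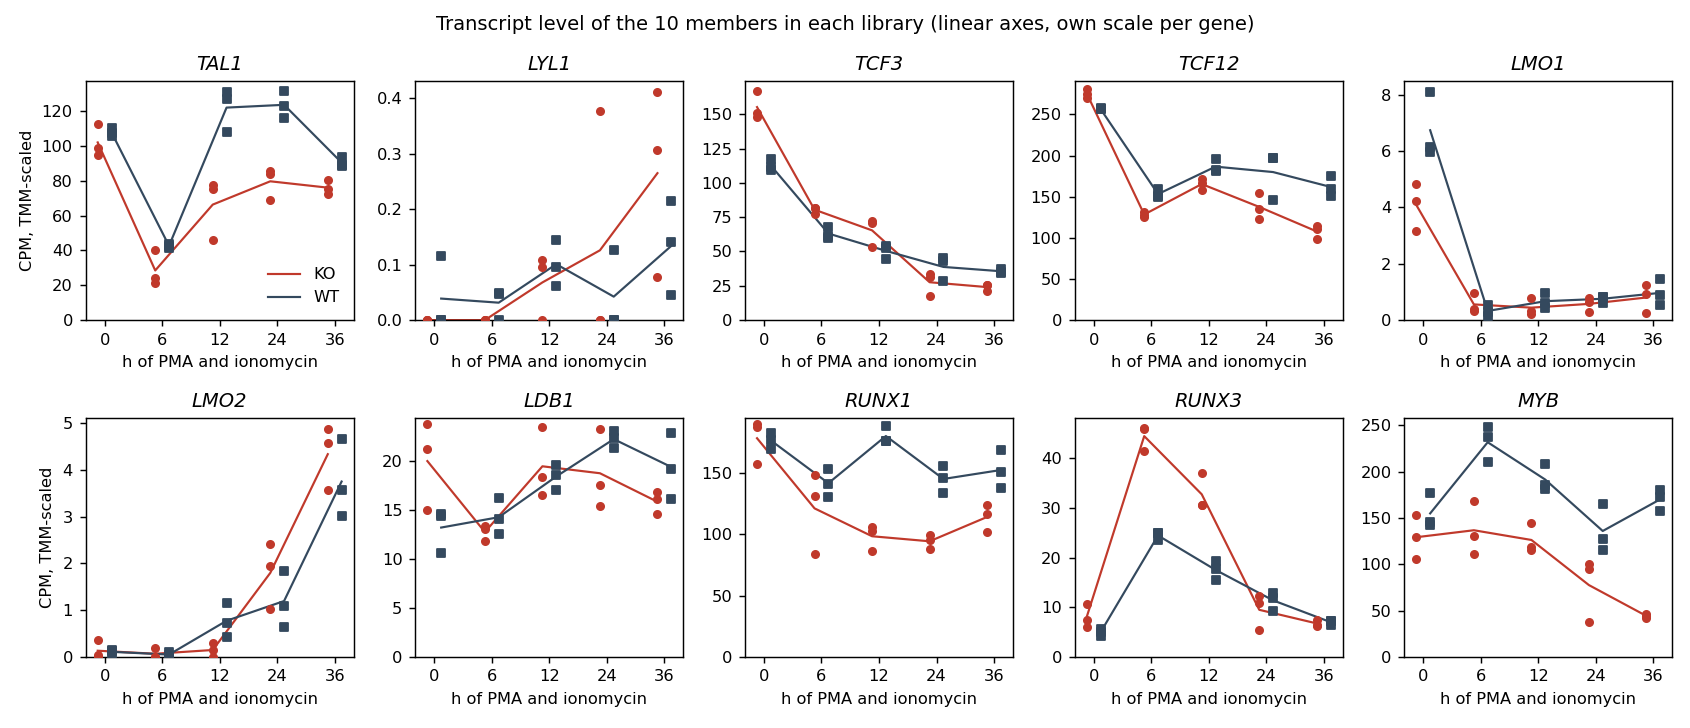
Level of each of the 10 genes (y axis, CPM, own scale per panel) by hours of PMA and ionomycin (x axis), with circles for the 3 KO libraries, squares for the 3 WT libraries and lines through the group means. TAL1 dips at 6 h, RUNX3 peaks there, LMO1 drops and LMO2 appears in both genotypes, and MYB at 36 h is 42.1 to 46.5 CPM in KO against 157 to 180.5 CPM in WT.

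**Figure D2:**
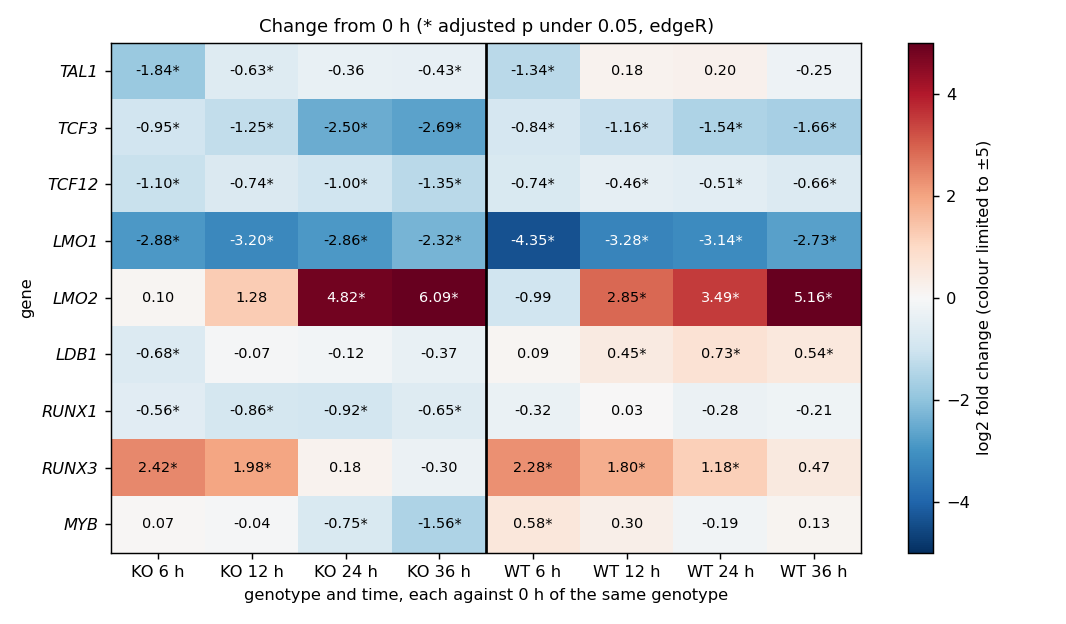
Fitted log2 change from 0 h of the same genotype for the 9 tested genes (rows) at 6, 12, 24 and 36 h (columns), blue for lower and red for higher, with an asterisk where the adjusted p was under 0.05. LMO1, TCF3 and TCF12 are lower at every time in both genotypes, and MYB is called lower at 36 h in KO (-1.56) with 0.13 in WT.

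KO and WT differed in some of the genes at every time. KO against WT called 2, 3, 5, 4 and 4 of the 9 genes at 0, 6, 12, 24 and 36 h, where 6.07%, 9.97%, 11.6%, 9.73% and 13.5% of all tested genes were called, and 5 in the average of the 5 times, where 30.6% were called. LDB1 and RUNX3, the 2 genes called at 0 h, were higher in KO, and every later call was lower in KO except RUNX3 at 6 and 12 h. Over all tested genes 2.96%, 5.21%, 6.07%, 4.97%, 6.95% and 15.3% were higher and 3.11%, 4.76%, 5.52%, 4.76%, 6.52% and 15.3% lower in KO at these times and in the average. With 1 library left out the genotype calls numbered 0 to 2, 2 to 3, 3 to 4, 1 to 5 and 2 to 4 at these times. The change from 0 h differed between the genotypes in 0, 2, 4 and 4 of the 9 genes at 6, 12, 24 and 36 h, against 3.01%, 2.06%, 3.54% and 9.33% of all genes, each time with the lower value in KO. Over all genes 1.64%, 1.42%, 1.84% and 4.71% changed more upward and 1.37%, 0.65%, 1.7% and 4.62% more downward in KO. With 1 library left out 0 to 1, 1 to 2, 0 to 4 and 3 to 4 of the 9 were called, and a fit of the compared groups alone called 0 at 24 h. At 6 h, where edgeR called 0, the unadjusted p was under 0.05 for 4 genes and the DESeq2 Wald test called 1, LDB1. Jointly over the 4 later times 6 of the 9 differed, against 9.84% of all genes.

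**Figure D3:**
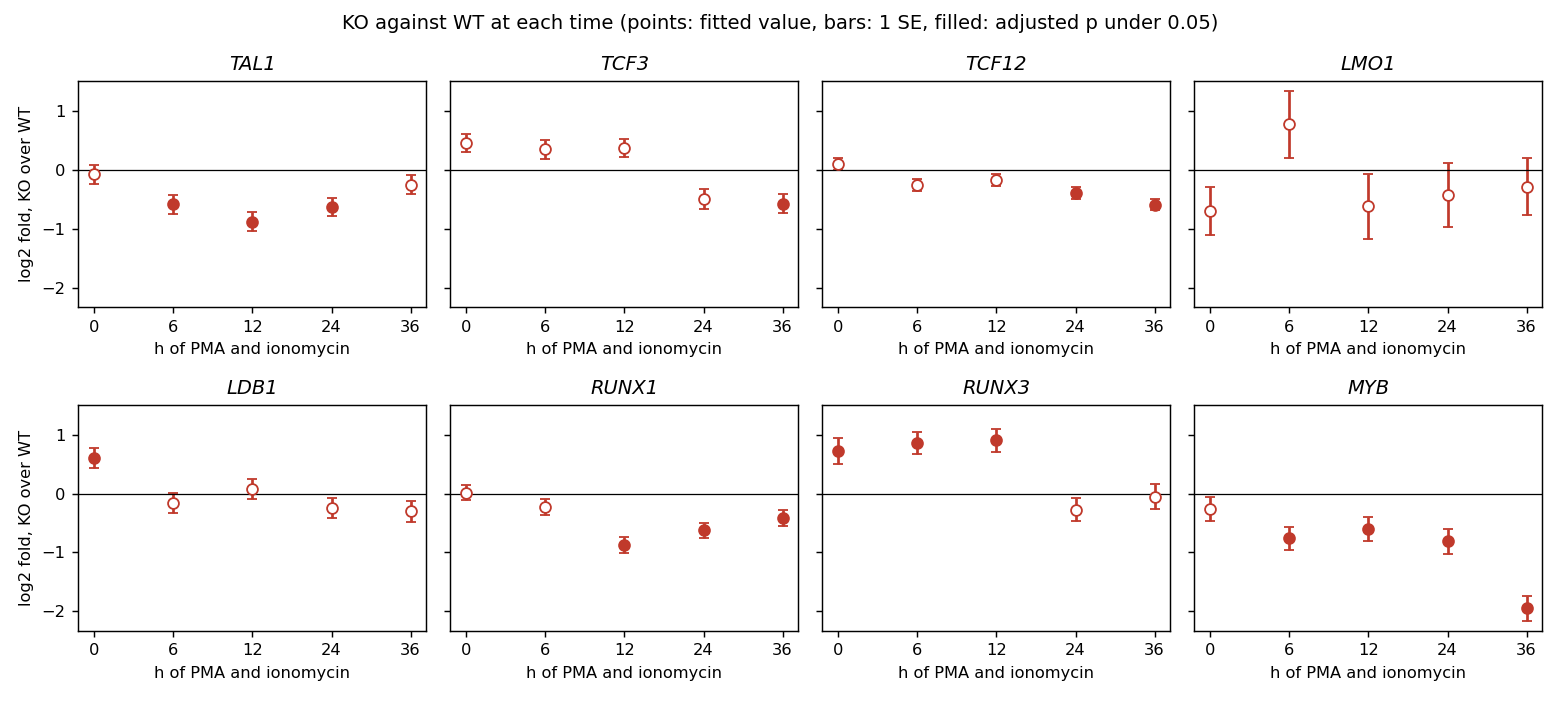
Fitted log2 difference, KO over WT (y axis), by hours of PMA and ionomycin (x axis) for 8 of the tested genes, with bars of 1 SE and filled points where the adjusted p was under 0.05. MYB is under 0 at every time and at -1.95 at 36 h, TAL1 and RUNX1 are lowest at 12 h (-0.88 and -0.87), and RUNX3 is at 0.91 at 12 h and -0.27 at 24 h.

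TAL1 (chr1:47216290-47232220, minus strand, GENCODE 29 on GRCh38, as for the genes below), which gives the complex its name, fell at 6 h in both genotypes and rose again by 12 h. In KO it stood at 112, 94.8 and 98.7 CPM at 0 h, 24.15, 39.95 and 21.4 CPM at 6 h, 46.1, 77.7 and 75.1 CPM at 12 h, 84.01, 85.8 and 69.2 CPM at 24 h and 75.1, 80.3 and 72.6 CPM at 36 h. In WT it stood at 108, 110.2 and 105 CPM at 0 h, 41.6, 43.5 and 42.8 CPM at 6 h, 127, 108 and 131 CPM at 12 h, 132, 123 and 116 CPM at 24 h and 93.8, 88.85 and 88.6 CPM at 36 h. All 6 h libraries lay under all 0 h libraries of their genotype, and at 12 h WT libraries lay around their 0 h level while KO libraries lay under theirs. The mean at 6 h was 27.9% of that at 0 h in KO (log2 -1.84, SE 0.164, adjusted p = 6.88e-11) and 39.6% in WT (log2 -1.34, SE 0.1604, adjusted p = 6.76e-08). From 6 to 12 h it rose 2.32-fold in KO (adjusted p = 2.32e-06) and 2.86-fold in WT (adjusted p = 3.01e-08), steps in which 10.8% and 9.49% of all genes were called. KO was still under its 0 h level at 12 h (log2 -0.63, SE 0.158, adjusted p = 0.002499) and at 36 h (log2 -0.43, SE 0.158, adjusted p = 0.0314), whereas WT was at a log2 change of 0.18 at 12 h (95% interval -0.14 to 0.50). The KO call at 36 h ended without KO 0 h replicate 1 or 3, or KO 36 h replicate 1 or 3 (adjusted p 0.05004 to 0.178).

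TAL1 was lower in KO than in WT during this recovery. At 0 h the libraries overlapped (log2 -0.08, 95% interval -0.40 to 0.24), and from 6 h on every KO library lay under every WT library. The log2 difference was -0.58 at 6 h (SE 0.161, adjusted p = 0.0167), -0.88 at 12 h (SE 0.158, adjusted p = 0.000199), -0.63 at 24 h (SE 0.157, adjusted p = 0.00697) and -0.25 at 36 h (SE 0.157, adjusted p = 0.341). The change from 0 h to 12 h differed by -0.80 between the genotypes (SE 0.222, adjusted p = 0.0489), and the joint test over the later times gave an adjusted p of 0.0687, which DESeq2's likelihood ratio test put at 0.0213 and a fit without KO 6 h replicate 2 at 0.00316. With all libraries the change from 0 h to 6 h differed by -0.50 between the genotypes, not called (SE 0.225, adjusted p = 0.265). Without KO 6 h replicate 2, which stands apart at 39.95 CPM, the 6 h difference was -0.91 (adjusted p = 6.63e-05) and the difference in change -0.83 (adjusted p = 0.0117). Of 17 alternative fits only this 1 called the 6 h difference in change. The 6 h call ended in a fit of its 6 libraries alone (adjusted p = 0.0742) and when replicate 1 or 3 of KO or replicate 2 of WT was left out (adjusted p 0.0627 to 0.146). The 24 h call ended without KO replicate 3 (log2 -0.52, adjusted p = 0.0723), and the 12 h difference in change ended without any library of 0 h, WT 12 h replicate 1 or 3 or KO 12 h replicate 1 (adjusted p 0.0608 to 0.159).

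LYL1 (chr19:13099033-13103161, minus strand), a close relative of TAL1 that can take its place in the complex, was barely detected. Its counts were 7, 0 and 0 in KO and 0, 0 and 2 in WT at 24 h, and 5, 8 and 2 in KO and 1, 2 and 3 in WT at 36 h. All 6 KO libraries of 0 and 6 h had no count, where 3 counts over a group amount to 0.0537 and 0.046 CPM. In all, 14 of 30 libraries had none and no library had more than 8. The 95% counting interval of KO at 36 h relative to KO at 0 h starts at 3.25-fold. In WT the ratio at 36 h was 2.3 (95% counting interval 0.491 to 14.2). These intervals cover counting error only, and no test was run.

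TCF3 (chr19:1609290-1652605, minus strand), the E protein E2A, fell steadily in both genotypes and further in KO. In KO it stood at 167, 151 and 148 CPM at 0 h, 82.01, 77.3 and 82.1 CPM at 6 h, 53.15, 72.5 and 70.5 CPM at 12 h, 31.3, 33.96 and 17.55 CPM at 24 h and 25.25, 25.4 and 21.5 CPM at 36 h. In WT it stood at 111, 109 and 117 CPM at 0 h, 59.55, 61.6 and 68.2 CPM at 6 h, 52.6, 44.4 and 54.4 CPM at 12 h, 42.85, 44.9 and 28.5 CPM at 24 h and 37.5, 34.3 and 35.05 CPM at 36 h. The genotypes changed places, with every KO library above every WT library at 0 h and under every one at 36 h. At 36 h the mean was 15.5% of that at 0 h in KO (log2 -2.69, SE 0.169, adjusted p = 5.06e-15) and 31.6% in WT (log2 -1.66, SE 0.163, adjusted p = 3.17e-10). KO against WT was 0.46 at 0 h (adjusted p = 0.0739) and -0.57 at 36 h (SE 0.165, adjusted p = 0.0167). The change from 0 h was lower in KO, with a log2 difference of -0.95 at 24 h (SE 0.227, adjusted p = 0.0126) and of -1.03 at 36 h (SE 0.227, adjusted p = 0.003165), and the joint adjusted p was 0.001098. The 36 h genotype call ended without KO replicate 3 or WT replicate 1 (adjusted p 0.0613 to 0.0932). The 24 h difference in change ended without WT 24 h replicate 2, KO 0 h replicate 1 or KO 24 h replicate 3, the KO library that stands apart (log2 -0.68 without it, adjusted p 0.0515 to 0.0574), and in a fit of those 4 groups alone (0.08165). KO against WT at 0 h was called with no filter (adjusted p = 0.0237), in a fit of its 6 libraries alone (0.0042) and with the replicate block (0.0136). At 24 h KO against WT was -0.49 (adjusted p = 0.0525). Of 12 alternative fits 6 called it (adjusted p 0.0056 to 0.471 over the 12), such as that without WT 24 h replicate 3 (log2 -0.66, adjusted p = 0.00844).

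TCF12 (chr15:56918623-57299281, plus strand), the E protein HEB, was lower than at 0 h in both genotypes at every time, and by 36 h it was lower in KO than in WT. It averaged 275.5 ± 5.6, 128 ± 3.235, 165 ± 6.57, 137.5 ± 15.4 and 108 ± 7.93 CPM in KO and 257 ± 1.08, 153 ± 5.1, 186.5 ± 8.41, 179.9 ± 29 and 162 ± 12.5 CPM in WT at 0, 6, 12, 24 and 36 h (SD, n = 3 each). KO libraries lay under WT libraries at 6, 12 and 36 h, and above them at 0 h. At 0, 6 and 12 h the log2 differences of 0.10, -0.25 and -0.17 were not called (adjusted p = 0.616, 0.09945 and 0.268). The DESeq2 Wald test and the replicate block did call 6 h (adjusted p = 0.0367 and 0.0335). From 6 to 12 h it rose in KO (log2 0.37, adjusted p = 0.0114), a call that ended without 2 of its 6 libraries (adjusted p 0.0517 to 0.05898), and in WT the log2 difference was 0.28 (adjusted p = 0.0617). At 36 h TCF12 differed from 0 h by a log2 of -1.35 in KO (adjusted p = 2.91e-13) and -0.66 in WT (adjusted p = 1.14e-06). KO against WT was -0.39 at 24 h (SE 0.09825, adjusted p = 0.00836) and -0.59 at 36 h (SE 0.0986, adjusted p = 6.36e-05). The change from 0 h was lower in KO, with a log2 difference of -0.49 at 24 h (adjusted p = 0.0402) and of -0.69 at 36 h (SE 0.139, adjusted p = 0.00133), with a joint adjusted p of 0.00947. The 24 h genotype call ended when KO replicate 3 or either of WT replicates 1 and 2 was left out (adjusted p 0.0645 to 0.102), with no filter (0.06503) and in a fit of its 6 libraries alone (0.191). The 24 h difference in change ended without any of the 12 libraries of 0 and 24 h except KO 24 h replicate 1 and WT 24 h replicate 3 (adjusted p 0.0695 to 0.168).

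The mix of the helix-loop-helix genes changed as well. Per kilobase of merged exons, TCF3 made up 46.7%, 49.3%, 37.9%, 23.4% and 25.8% of the TCF3 and TCF12 sum in KO and 40.5%, 39.0%, 29.6%, 24.9% and 25.5% in WT at 0, 6, 12, 24 and 36 h. TAL1 relative to that sum averaged 32.7%, 18.7%, 40.7%, 73.5% and 87.1% in KO and 41.4%, 28.2%, 76.2%, 86.75% and 69.1% in WT. Its order turned round, since at 12 h the KO libraries (31.7% to 45.3%) lay under the WT libraries (71.6% to 81.4%) and at 36 h above them (81.6% to 96.3% in KO and 66.5% to 72.1% in WT). No test was run on these shares.

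**Figure D4:**
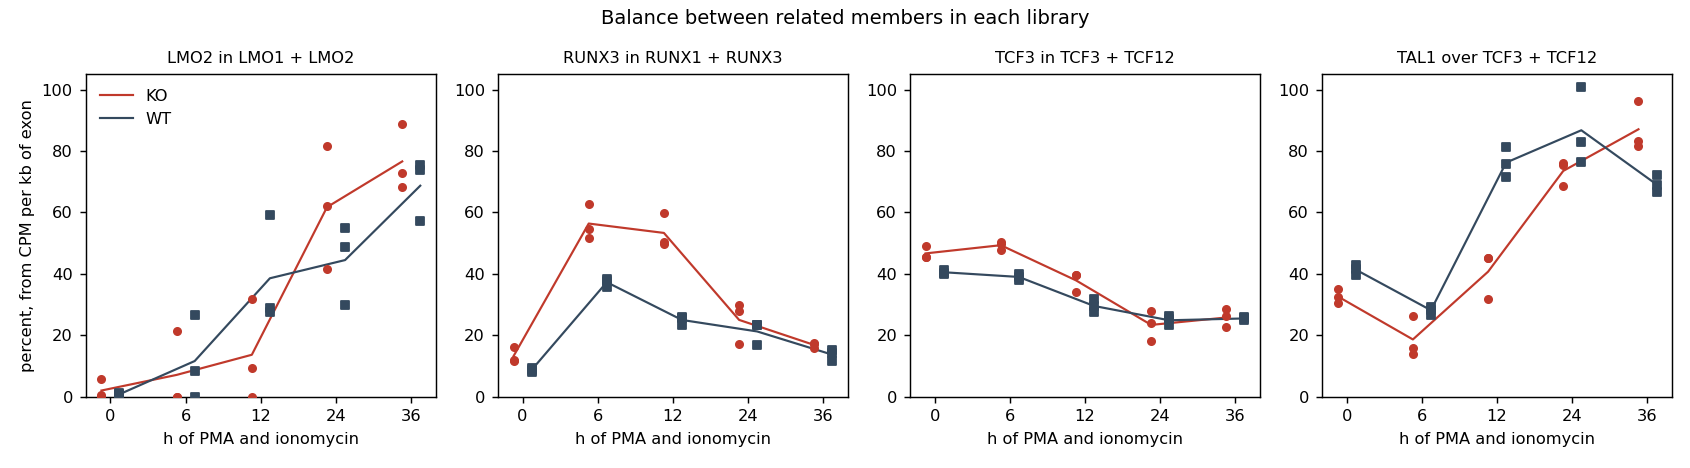
Share of LMO2 in LMO1 plus LMO2, of RUNX3 in RUNX1 plus RUNX3 and of TCF3 in TCF3 plus TCF12, and TAL1 as a percentage of TCF3 plus TCF12 (y axes, percent, from CPM per kilobase of merged exons), by hours (x axis), with circles for KO libraries, squares for WT libraries and lines through the means. At 36 h LMO2 made up 68.2% to 88.7% in KO and 57.1% to 75.3% in WT, and at 6 h RUNX3 made up 51.6% to 62.8% in KO and 35.8% to 38.35% in WT.

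LMO1 (chr11:8224304-8268716, minus strand) and LMO2 (chr11:33858576-33892289, minus strand) encode the LIM-only adaptors, and LMO1 was lower than at 0 h at every later time in both genotypes. From 6 h on LMO1 was at most 1.24 CPM in any KO library and 1.46 CPM in any WT library, against 4.24, 3.17 and 4.84 CPM in KO and 5.97, 6.16 and 8.09 CPM in WT at 0 h. No later library reached the lowest library of 0 h. Summed over 3 libraries its counts were 247, 37, 27, 31 and 54 in KO at 0, 6, 12, 24 and 36 h. In WT they were 421, 21, 36, 35 and 56, so the later levels rest on few counts. At 6 h the log2 change was -2.88 in KO (SE 0.478, adjusted p = 1.38e-05) and -4.35 in WT (SE 0.512, adjusted p = 4.61e-08), and all 8 comparisons with 0 h were called. KO against WT was called at no time, and at 0 h it was -0.70 (95% interval -1.54 to 0.14, adjusted p = 0.359) although every KO library lay under every WT library.

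LMO2, which is also an oncogene of T cell leukaemia, had very low counts at 0 and 6 h and more at the later times. It had to differ between times to be tested. Its rise and the ratios below therefore describe these libraries and cannot count as a result. Summed over 3 libraries its counts were 3, 4, 9, 102 and 273 in KO and 6, 3, 38, 54 and 207 in WT at 0, 6, 12, 24 and 36 h. At 36 h it was 3.56, 4.57 and 4.87 CPM in KO and 4.66, 3.01 and 3.58 CPM in WT. The level at 36 h relative to 0 h was 82.5 (95% counting interval 27.95 to 403) in KO and 39.7 (95% counting interval 17.9 to 109) in WT, and at 12 h 7.55 (95% counting interval 3.165 to 21.8) in WT. These ratios are of summed counts, and their intervals cover counting error only. By the mean of the 3 libraries the level at 36 h was 3340% of that at 0 h in KO and 3523% in WT, so the larger ratio in KO rests on how 3 counts are averaged. KO was lower than WT at 12 h, with 6, 3 and 0 counts in KO and 16, 15 and 7 in WT (log2 -2.30, SE 0.735, adjusted p = 0.03701). At 36 h the log2 difference was 0.20 (95% interval -0.80 to 1.204). The 12 h call ended when replicate 2 or 3 of KO or replicate 1 or 2 of WT was left out (adjusted p 0.0836 to 0.143). It also ended in a fit of its 6 libraries alone (0.108). The annotated antisense gene AC132216.1 overlaps LMO2 and has 94 counts in all libraries against 699 for LMO2. Since the strand setting of the counting is not given in the sources used here, reads of the 2 cannot be told apart.

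LDB1 (chr10:102107560-102120453, minus strand), the scaffold that brings enhancers and promoters together, was lower at 6 h in KO and higher from 12 h on in WT. In KO it stood at 23.8, 14.95 and 21.3 CPM at 0 h, 11.9, 13.04 and 13.3 CPM at 6 h, 16.6, 23.5 and 18.4 CPM at 12 h, 23.3, 15.4 and 17.55 CPM at 24 h and 16.2, 16.8 and 14.6 CPM at 36 h. In WT it stood at 14.4, 10.6 and 14.6 CPM at 0 h, 12.5, 14.1 and 16.2 CPM at 6 h, 19.6, 17.05 and 18.6 CPM at 12 h, 23.1, 22.3 and 21.3 CPM at 24 h and 19.15, 16.1 and 22.9 CPM at 36 h. At 0 h every KO library lay above every WT library, and at the later times the genotypes overlapped. KO exceeded WT 1.52-fold at 0 h (log2 0.60, SE 0.173, adjusted p = 0.0314). KO was lower than its 0 h level at 6 h (log2 -0.68, SE 0.172, adjusted p = 0.00263), while WT was higher than its own at 24 h (log2 0.73, SE 0.173, adjusted p = 0.00101) and 36 h (log2 0.54, SE 0.173, adjusted p = 0.0122). At 12, 24 and 36 h KO was at log2 changes of -0.07, -0.12 and -0.37 that were not called, after a rise from 6 to 12 h (log2 0.61, adjusted p = 0.0152) that ended without 2 of its 6 libraries (adjusted p 0.08475 to 0.167). The change from 0 h was lower in KO, with a log2 difference of -0.85 at 24 h (adjusted p = 0.0427) and -0.91 at 36 h (adjusted p = 0.01497). The test over all later times gave a joint adjusted p of 0.0476. The 0 h call ended when replicate 1 or 3 of KO or replicate 1 or 2 of WT was left out (adjusted p 0.0745 to 0.201). The 36 h difference ended without KO 0 h replicate 1 or WT 36 h replicate 3 (adjusted p 0.06697 to 0.0719), and the WT call at 36 h ended without WT 0 h replicate 2 or WT 36 h replicate 3 (adjusted p 0.0675 to 0.117). Leaving out 1 library ended the 24 h difference in 9 of 12 fits (adjusted p 0.05125 to 0.1705), the joint call in 24 of 30 (adjusted p 0.0528 to 0.1965) and a WT call at 12 h (log2 0.45, adjusted p = 0.0444) in all 6 (adjusted p 0.0526 to 0.238).

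RUNX1 (chr21:34787801-36004667, minus strand), a core binding factor needed for blood stem cells and thymocytes, was called lower in KO at every time and in WT at none. In KO it stood at 190.1, 158 and 188 CPM at 0 h, 131, 84.4 and 148 CPM at 6 h, 106, 103 and 86.45 CPM at 12 h, 99.55, 95.4 and 88.3 CPM at 24 h and 102, 124 and 117 CPM at 36 h. In WT it stood at 183, 170.2 and 177 CPM at 0 h, 141, 130.4 and 154 CPM at 6 h, 189, 176 and 176 CPM at 12 h, 146, 134 and 156 CPM at 24 h and 138, 151 and 169 CPM at 36 h. KO libraries lay under all WT libraries from 12 h on, and the ranges overlapped at 0 and 6 h. KO against WT was -0.87 at 12 h (SE 0.132, adjusted p = 1.84e-05), -0.62 at 24 h (SE 0.132, adjusted p = 0.001595) and -0.42 at 36 h (SE 0.1315, adjusted p = 0.0298), against 0.02 at 0 h (95% interval -0.25 to 0.28). The change from 0 h was lower in KO, with a log2 difference of -0.89 at 12 h (SE 0.186, adjusted p = 0.00506) and -0.64 at 24 h (adjusted p = 0.0469), with a joint adjusted p of 0.0092. At 6 and 36 h the difference in change was -0.24 and -0.43, not called (adjusted p = 0.596 and 0.145). WT itself was at log2 changes of -0.32, 0.03, -0.28 and -0.21 at 6, 12, 24 and 36 h. Its libraries of 6, 24 and 36 h all lay under those of 0 h. KO 6 h replicate 2 carried much of the 6 h values: without it KO against WT was -0.02 in place of -0.23, and KO at 6 h against 0 h -0.36 (adjusted p = 0.01935) in place of -0.56. The DESeq2 Wald test and a fit of the compared groups alone did call WT at 6 h against 0 h (adjusted p = 0.0461 and 0.00222). The 36 h genotype call ended when replicate 1 or 3 of KO or replicate 2 or 3 of WT was left out (adjusted p 0.06655 to 0.163). The 24 h difference in change ended without any of the 12 libraries of 0 and 24 h except KO 0 h replicate 2 (adjusted p 0.0515 to 0.155).

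RUNX3 (chr1:24899511-24965121, minus strand), the core binding factor of cytotoxic T cells, rose within 6 h and declined again, and was higher in KO at 0, 6 and 12 h. In KO it stood at 10.6, 5.98 and 7.47 CPM at 0 h, 46.1, 41.4 and 45.9 CPM at 6 h, 30.6, 30.5 and 37.1 CPM at 12 h, 12.3, 10.8 and 5.33 CPM at 24 h and 6.27, 7.44 and 6.455 CPM at 36 h. In WT it stood at 5.51, 4.29 and 4.98 CPM at 0 h, 24.9, 23.6 and 24.9 CPM at 6 h, 19.3, 15.5 and 17.75 CPM at 12 h, 12.95, 11.9 and 9.26 CPM at 24 h and 7.15, 7.31 and 6.49 CPM at 36 h. KO libraries lay above all WT libraries at 0, 6 and 12 h, and the ranges overlapped at 24 and 36 h. The rise at 6 h was 5.35-fold in KO (log2 2.42, SE 0.203, adjusted p = 1.66e-11) and 4.86-fold in WT (log2 2.28, SE 0.209, adjusted p = 1.97e-10). These changes differed by 0.14 (95% interval -0.44 to 0.72). KO exceeded WT 1.65-fold at 0 h (adjusted p = 0.03805), 1.82-fold at 6 h (adjusted p = 0.00174) and 1.87-fold at 12 h (adjusted p = 0.00131). At 24 h the log2 difference was -0.27 (95% interval -0.68 to 0.14), and 0.05 without KO replicate 3. KO at 24 h against 0 h was 0.18 (adjusted p = 0.5545), and 0.50 without that library (adjusted p = 0.0337). The joint test of the changes gave an adjusted p of 0.00513. The 0 h call ended without any of its 6 libraries except KO replicate 2 (adjusted p 0.0568 to 0.3199), with DESeq2 size factors (0.05065) and in a fit of the 6 libraries alone (0.0591). Per kilobase, RUNX3 made up 13.2%, 56.4%, 53.3%, 25.02% and 16.85% of the RUNX1 and RUNX3 sum in KO and 8.73%, 37.3%, 25.0%, 21.3% and 13.7% in WT at 0, 6, 12, 24 and 36 h.

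MYB (chr6:135181315-135219173, plus strand), a factor of immature blood cells that takes part in TAL1 enhancers, was lower in KO than in WT after activation, most of all at 36 h. In KO it stood at 129, 106 and 153 CPM at 0 h, 168, 111 and 130.5 CPM at 6 h, 118.5, 145 and 115.5 CPM at 12 h, 100.4, 94.5 and 37.6 CPM at 24 h and 43.7, 42.1 and 46.5 CPM at 36 h. In WT it stood at 145, 142.5 and 177 CPM at 0 h, 248, 237 and 210.3 CPM at 6 h, 181, 185.5 and 208 CPM at 12 h, 165, 128 and 115 CPM at 24 h and 157, 180.5 and 173 CPM at 36 h. Every KO library lay under every WT library at 6, 12, 24 and 36 h, and the genotypes overlapped at 0 h. At 36 h KO was 3.85-fold lower (log2 -1.95, SE 0.211, adjusted p = 3.73e-08), and the change from 0 h differed by -1.69 (SE 0.289, adjusted p = 0.000209, joint 0.00135). Earlier differences were -0.76 at 6 h (adjusted p = 0.0115), -0.60 at 12 h (adjusted p = 0.04803) and -0.81 at 24 h (adjusted p = 0.00784). In KO MYB was under its 0 h level at 24 h (log2 -0.75, SE 0.2045, adjusted p = 0.00419) and 36 h (log2 -1.56, SE 0.209, adjusted p = 1.99e-07), and in WT it was above it at 6 h (log2 0.58, SE 0.201, adjusted p = 0.0345). Without KO 24 h replicate 3, at 37.6 CPM the lowest of all libraries, the 24 h values were -0.46 against WT (adjusted p = 0.0919) and -0.38 against KO 0 h (adjusted p = 0.0736). The 24 h genotype call also ended without WT replicate 1 (0.0667) and in a fit of its 6 libraries alone (0.1675), and the 6 h one without WT replicate 1 or KO replicate 2 (adjusted p 0.0505 to 0.06565). The 12 h call ended without any of its 6 libraries (adjusted p 0.0597 to 0.146), and the WT rise ended without WT 0 h replicate 1 or 2 or WT 6 h replicate 1 or 2 (adjusted p 0.1075 to 0.161) and with the DESeq2 Wald test (0.0725). The antisense gene MYB-AS1 overlaps MYB, with 309 counts in all libraries against 80481 for MYB.

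Other parts of the complex changed in both directions. Of 22 listed partner genes (GATA, LMO, SSBP and core binding factors and corepressors) 19 were tested, and 2 were higher and 9 lower at 36 h than at 0 h in KO and 4 and 6 in WT, where 36.7% of all tested genes were called in KO and 39.1% in WT. KO against WT called 2 higher and 7 lower in the average of the 5 times (median log2 -0.01, and -0.01 over all genes, of which 30.6% were called). SSBP2, which binds and stabilises LDB1, averaged 49.8 ± 6.82 CPM in KO and 112 ± 16.7 CPM in WT at 36 h (SD, n = 3 each, as below). Its average difference was -1.02 (SE 0.0471, adjusted p = 9.09e-18). HDAC2, a histone deacetylase, was lower in KO (191 ± 11.98 CPM in KO and 332 ± 8.301 CPM in WT at 36 h, average difference -0.60, adjusted p = 2.08e-15). SSBP4, a relative of SSBP2, was higher (average difference 0.65, adjusted p = 1.17e-05). CBFB, the partner subunit of RUNX proteins, rose by a log2 of 1.28 in KO and 1.46 in WT at 36 h (adjusted p = 1.16e-09 and 6.32e-11). GATA3, the GATA factor of T cells, was picked after its values were seen, and averaged 50.5 ± 8.04, 75.4 ± 23.4, 110.3 ± 36.01, 53.05 ± 17.4 and 37.6 ± 2.81 CPM in KO and 49.98 ± 2.89, 63.8 ± 6.39, 80.5 ± 7.998, 73.6 ± 17.6 and 52.3 ± 4.18 CPM in WT at 0, 6, 12, 24 and 36 h.

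The inhibitors of E proteins were higher in KO at rest and late. ID1, ID2 and ID3 encode helix-loop-helix proteins that bind E proteins and keep them off DNA, and ID4 was too low to test. All 3 tested genes were called higher in KO than in WT at 0, 24 and 36 h and in the average, and none at 6 or 12 h. Of all tested genes 2.96%, 4.97%, 6.95% and 15.3% were higher in those 4 comparisons. ID1 averaged 47.5 ± 2.19, 29.96 ± 4.62, 65.5 ± 5.68, 113 ± 3.32 and 97.1 ± 9.32 CPM in KO and 22.7 ± 1.53, 28.2 ± 1.57, 59.2 ± 11.2, 38.2 ± 9.65 and 33.9 ± 1.93 CPM in WT at 0, 6, 12, 24 and 36 h (36 h difference 1.52, adjusted p = 1.47e-09). At 36 h ID2 averaged 67.05 ± 7.61 CPM in KO and 30.45 ± 2.39 CPM in WT, and ID3 627 ± 56.4 CPM in KO and 351 ± 28.8 CPM in WT. All 3 were also called higher at 36 h than at 0 h in both genotypes, with log2 changes of 1.03, 2.62 and 1.00 in KO and 0.58, 2.75 and 1.03 in WT. Of all tested genes 18.6% were higher at 36 h in KO and 20.2% in WT. At 6 h against 0 h 1 was called higher and 2 lower in KO (14% and 13.2% of all tested genes). In WT 1 was called higher and 0 lower (11.8% and 10.5%). The change from 0 h to 6 h was called lower in KO than in WT for 2 of the 3 (1.37% of all tested genes).

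Genes reported as targets of TAL1, LMO2 or MYB differed between the genotypes in both directions. Of 11 tested 2 were called higher and 6 lower in KO than in WT in the average of the 5 times (median log2 -0.38), against 15.3% higher and 15.3% lower over all tested genes (median log2 -0.01). ALDH1A2, which makes retinoic acid, averaged 51.7 ± 3.4, 19.6 ± 0.538, 9.81 ± 4.27, 10.5 ± 4.91 and 2.7 ± 0.621 CPM in KO and 288 ± 18.8, 90.9 ± 6.999, 65.2 ± 8.801, 189 ± 87.6 and 48.2 ± 8.27 CPM in WT at 0, 6, 12, 24 and 36 h (average difference -3.16, adjusted p = 1.31e-18). It was lower in KO at 0 h as well (log2 -2.47, adjusted p = 2.76e-07). ARID5B, a chromatin regulator, averaged 121 ± 12.7 CPM in KO and 318 ± 9.42 CPM in WT at 36 h (average difference -1.14, adjusted p = 1.75e-17). TRIB2, a pseudokinase, was higher in KO in the average (difference 0.60, adjusted p = 3.80e-06), mainly through 6 and 12 h. It averaged 109 ± 34.9 CPM in KO and 45.6 ± 4.73 CPM in WT at 6 h, and 66.7 ± 16.4 and 21.5 ± 3.965 CPM at 12 h. At 0 h it averaged 31.7 ± 2.12 CPM in KO and 35.2 ± 2.49 CPM in WT, and at 36 h 16.5 ± 3.4 and 16.7 ± 0.826 CPM. BCL2, the survival gene, rose by 36 h in both genotypes, with log2 changes of 1.57 in KO and 1.75 in WT (adjusted p = 1.32e-09 and 1.00e-10).

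Most genes reported as targets of E proteins were lower at 36 h in both genotypes. Of 9 tested 7 were lower and 1 higher at 36 h than at 0 h in KO, and 7 and 1 in WT, with median log2 changes of -2.30 in KO and -2.39 in WT. Over all tested genes 18% were lower and 18.6% higher in KO, and 19% and 20.2% in WT. DNTT, the terminal transferase, averaged 0.423 ± 0.2497 CPM at 36 h against 116 ± 11.7 CPM at 0 h in KO, and 0.6605 ± 0.514 CPM at 36 h against 179 ± 18.01 CPM at 0 h in WT (log2 -7.99 in KO and -7.89 in WT, adjusted p = 3.28e-18 and 2.39e-18). The log2 changes at 36 h were -4.46 in KO and -4.95 in WT for the recombinase gene RAG1 (adjusted p = 1.54e-08 and 1.42e-09), and -2.30 in KO and -2.80 in WT for the T cell co-receptor CD4 (adjusted p = 1.06e-07 and 9.55e-10). Between genotypes 3 of the 9 were higher and 5 lower in KO in the average of the 5 times, where 30.6% of all tested genes were called. IGLL1, a surrogate light chain gene, averaged 4.52 ± 1.09 CPM in KO and 122 ± 10.7 CPM in WT at 0 h (average difference -5.26, adjusted p = 6.47e-27). CDKN1A, the cell cycle inhibitor p21, averaged 29.15 ± 3.201 CPM in KO and 4.79 ± 1.57 CPM in WT at 36 h (average difference 1.48, adjusted p = 8.19e-15). At 0 h it averaged 3.4 ± 0.347 CPM in KO and 4.38 ± 1.67 CPM in WT. CXCR4, a chemokine receptor, averaged 78.01 ± 6.13 CPM in KO and 271 ± 20.6 CPM in WT at 36 h (average difference -0.96, adjusted p = 1.24e-14). At 0 h its mean was higher in KO, with 577.5 ± 57.3 CPM against 462 ± 27.7 CPM in WT.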

How the data were processed

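RNA-seq of 30 libraries was analysed from 1 gene-level file per library. These hold expected counts (estimated counts per symbol, not normalized, summed over isoforms), deposited by the authors. The submitters' processing notes name GRCh37 (hg19), cutadapt, STAR and DESeq2 without versions. Neither the counting program nor its strand setting is stated there. The joint table of the series was not used. Of all values 2876 (0.177%) were not whole, and counts were rounded. Symbols passing edgeR's filterByExpr (minimum count 10) were scaled by TMM and fitted with 1 mean per group over all 30 libraries in edgeR 4.0.16 (R 4.3.3), with quasi-likelihood F tests and Benjamini-Hochberg adjustment over all 21554 tested symbols, called at an adjusted p under 0.05. Differences are KO minus WT, or later minus 0 h. The program was tested on simulated data. Alternatives were DESeq2 1.42.0 size factors, its Wald and likelihood ratio tests, no filter, leaving out the 3 shallow libraries or each library in turn, fits of the compared groups alone, and the replicate number as a block. Library totals ran from 5635023 to 28234046 counts. Intervals of count ratios (95%) and floors of 3 counts per group cover counting error only. Gene positions and merged exon lengths are from GENCODE 29 on GRCh38. The genes and lists were chosen with earlier results of these data known. All 10 genes are named in the text, and of each list up to 4 genes with the smallest p in the average KO against WT difference and up to 4 with the smallest p in WT at 36 h against 0 h, among genes with a group mean of at least 5 CPM. A gene that this rule names is not reported here.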

Additional observations from a re-analysis of the deposited data

Results flagged for a closer look

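The change from 0 h was compared between KO and WT by a test of the difference itself (edgeR quasi-likelihood F test, adjusted p under 0.05). Values are KO minus WT on the log2 scale, with 3 libraries a group. At 6, 12, 24 and 36 h 0, 2, 4 and 4 of the 9 tested genes were called. Of all tested genes 3.01%, 2.06%, 3.54% and 9.33% were called at these times. The joint test called 6 of the 9, and 9.84% of all tested genes. At 12 h TAL1 differed by -0.80 and RUNX1 by -0.89. At 24 h the difference was -0.95 for TCF3, -0.49 for TCF12, -0.85 for LDB1 and -0.64 for RUNX1. At 36 h it was -1.03 for TCF3, -0.69 for TCF12, -0.91 for LDB1 and -1.69 for MYB. Tested jointly over the 4 later times, the adjusted p was 0.001098 for TCF3, 0.00947 for TCF12, 0.0476 for LDB1, 0.0092 for RUNX1, 0.00513 for RUNX3 and 0.00135 for MYB. Calls that end without 1 library are TAL1 at 12 h (9 of 12 libraries), TCF12 (10), RUNX1 (11), LDB1 (9) and TCF3 (3) at 24 h, LDB1 at 36 h (2 of 12) and the joint call of LDB1 (24 of 30). No formal outlier test was run in groups of 3.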

How the results depend on the processing

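Of 2835 recomputed values of single genes, 2626 stayed on their side of the threshold, 154 lost a call and 55 gained one. The sign turned in 78, none of them called before or after. The number of genes called of 9 moved by more than 1.5 times as follows. With DESeq2 size factors KO against WT at 0 h called 1. Without the 3 shallow libraries KO against WT at 0 h called 0, the 12 h difference in change 1 and the 24 h difference 1. In fits of the compared groups alone KO against WT at 24 h called 2 and the 24 h difference 0. The DESeq2 Wald test called 1 gene in the 6 h difference. Leaving out 1 library at a time gave 0 to 2 genes for KO against WT at 0 h, 3 to 4 at 12 h, 1 to 5 at 24 h and 2 to 4 at 36 h, and 0 to 1, 1 to 2 and 0 to 4 for the difference in change at 6, 12 and 24 h. The cause of these moves was not tested. No label says that replicate numbers pair KO with WT libraries. Of 12 same-numbered pairs at 0 to 24 h, 1 had a correlation of their deviations over 0.1 (range -0.015 to 0.126). The highest belonged to KO and WT 24 h replicate 3. Such a correlation over all genes cannot exclude pairing, and pairing was not assumed in the main fit. With the replicate block KO against WT at 6 h called 5 of the 9, and over all genes 1651, 2494, 2625 and 2452 at 0, 6, 12 and 24 h in place of 1309, 2148, 2497 and 2097. Depth limits LYL1 and LMO2, whose counts were in single figures in many libraries. It also limits LMO1 from 6 h on, where several libraries had counts in single figures.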

Other observations

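Other leukaemia factors of T cells moved in both directions after activation. Of 18 listed genes 10 were tested, and 1 was higher and 5 lower at 36 h than at 0 h in KO and 3 and 6 in WT, where 36.7% of all tested genes were called in KO and 39.1% in WT. In KO against WT 1 was higher and 2 lower in the average of the 5 times, a share of the 10 near the 30.6% called over all genes. WT1, a zinc finger factor, had an average difference of 0.90 (adjusted p = 3.87e-07) and PHF6, a chromatin protein, of -0.24 (adjusted p = 0.0413). The other gene lower in KO was ERG, an ETS factor named here after its values were seen. BCL11A, a zinc finger repressor, changed by 36 h by a log2 of -1.42 in KO and -1.76 in WT (adjusted p = 7.74e-11 and 9.39e-13).

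Of 7 listed neighbours of TAL1 on chromosome 1, 3 were tested. STIL, a centriole gene beside TAL1, changed by -2.34 in KO and -1.86 in WT at 36 h against 0 h (adjusted p = 7.17e-18 and 2.41e-15). CMPK1, a nucleotide kinase gene, changed by 0.28 in KO and 0.47 in WT (adjusted p = 0.03835 and 0.000543). Over the 10 group means the genes whose log2 level was most like that of TAL1 among 9062 genes were PC (Pearson r 0.933), BSCL2 (Pearson r 0.923) and TNFRSF1A (Pearson r 0.9204). For MYB they were MEGF9 (0.968), ZNF638 (0.956) and PRKX (0.9345). These correlations describe 10 points that share genotype and time.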
